A study of Homo sapiens with 6 samples.

Results

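Complement is a blood and tissue defence system of secreted proteases and binding proteins, and 9 of its genes are described here: C3, C1R, C1S, CFD, CFI, C4BPB, CD46, CD55 and CD59. They were taken by gene symbol, and all 9 were found among the 23245 rows used. The cells were L3.6pl, an established human pancreatic cancer line, grown in serum-containing medium without drug treatment. Messenger RNA was compared between 3 libraries titled ARID1Ako, with the genotype given as ARID1A-deficient, and 3 libraries of parental cells, with the genotype given as WT. ARID1A encodes a large subunit through which a SWI/SNF complex, a remodeller of nucleosomes, contacts DNA. The labels say neither how the gene was disrupted nor whether the deficient cells are 1 clone, so an effect of the lost gene and one of a clone cannot be told apart.

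Complement is started by the C1 complex on bound antibody, by lectins on sugars, or by slow self-activation of C3 in the alternative pathway. All routes meet at C3, whose cleavage product C3b marks surfaces and leads to the pore-forming membrane attack complex. Host cells are spared by soluble regulators such as factor I and C4b-binding protein, and by the surface proteins CD46, CD55 and CD59. Most circulating complement comes from the liver, while epithelial cells, including carcinoma cells, also make some components and carry the surface regulators.

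ARID1A itself measured 3.55, 3.28 and 3.61 FPKM in ARID1A-deficient libraries, against 11.8, 6.76 and 9.42 FPKM in parental libraries (limma adjusted p = 0.00610). FPKM counts sequenced fragments relative to transcript length and library total, and which library scaling the submitters chose is unstated. Depth relative to parental library 1, estimated from the spacing of the lowest values, was 0.732 to 1.27 in ARID1A-deficient libraries and 0.785 to 1.04 in parental libraries. Epithelial markers summed to 4527 to 5723 FPKM in ARID1A-deficient libraries and 6286 to 9831 FPKM in parental libraries. Their median log2 fold change was -0.43, and none of 6 passed the threshold in limma. At an unadjusted limma p under 0.05 there were 4 of the 6, against 3781 of all 12826 genes tested. Markers of hepatocytes, the main source of plasma complement, summed to 0.555 to 1.05 FPKM in ARID1A-deficient libraries and 0.175 to 0.659 FPKM in parental libraries. Of those 7 markers, 3, namely APOB, TTR and FGB, were at 0 in every library. Most of the sum was SERPINA1, at a mean of 0.677 FPKM in ARID1A-deficient libraries and 0.312 FPKM in parental libraries, without overlap. Fibroblast markers summed to 0.346 to 0.594 FPKM in ARID1A-deficient libraries and 0.0176 to 0.137 FPKM in parental libraries, with DCN and LUM at 0 throughout. PDGFRA averaged 0.238 against 0.0365 FPKM and SPARC 0.197 against 0.0129 FPKM, ARID1A-deficient against parental. COL6A3 ran the other way, at 0 against 0.0195 FPKM. All fibroblast markers lay below the minimum mean for testing.

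The comparison addresses which transcripts differ between ARID1A-deficient and parental cells. Of the 9 complement genes, C3, C1S, C4BPB and CD59 rose in ARID1A-deficient cells, none fell, and C1R, CFD, CFI, CD46 and CD55 did not pass the threshold. The threshold was a Benjamini-Hochberg adjusted p of 0.05 in limma, fitted to the 12826 genes that averaged 0.5 FPKM or more. Of all genes tested, 15.9% passed in either direction and 7.82% were higher. The 4 that rose did so by at least 2-fold on the log2(FPKM + 1) scale, as did 2.22% of all genes tested. The median log2 fold change was 0.49 over the 9 genes and -0.015 over all genes tested. All 3 ARID1A-deficient libraries lay above all 3 parental libraries for 5 of the 9, as they did for 16.7% of genes tested, and 35.3% of genes tested were apart in either direction. All 9 reached the minimum mean, C1S only through its ARID1A-deficient libraries, so the filter favoured a higher count and median. With a minimum mean of 3 FPKM, under which C1S was not tested, 3 of 8 rose and their median log2 fold change was 0.40. Since this is bulk RNA, more cells that express a gene and more RNA per cell cannot be told apart.

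**Figure D1:**
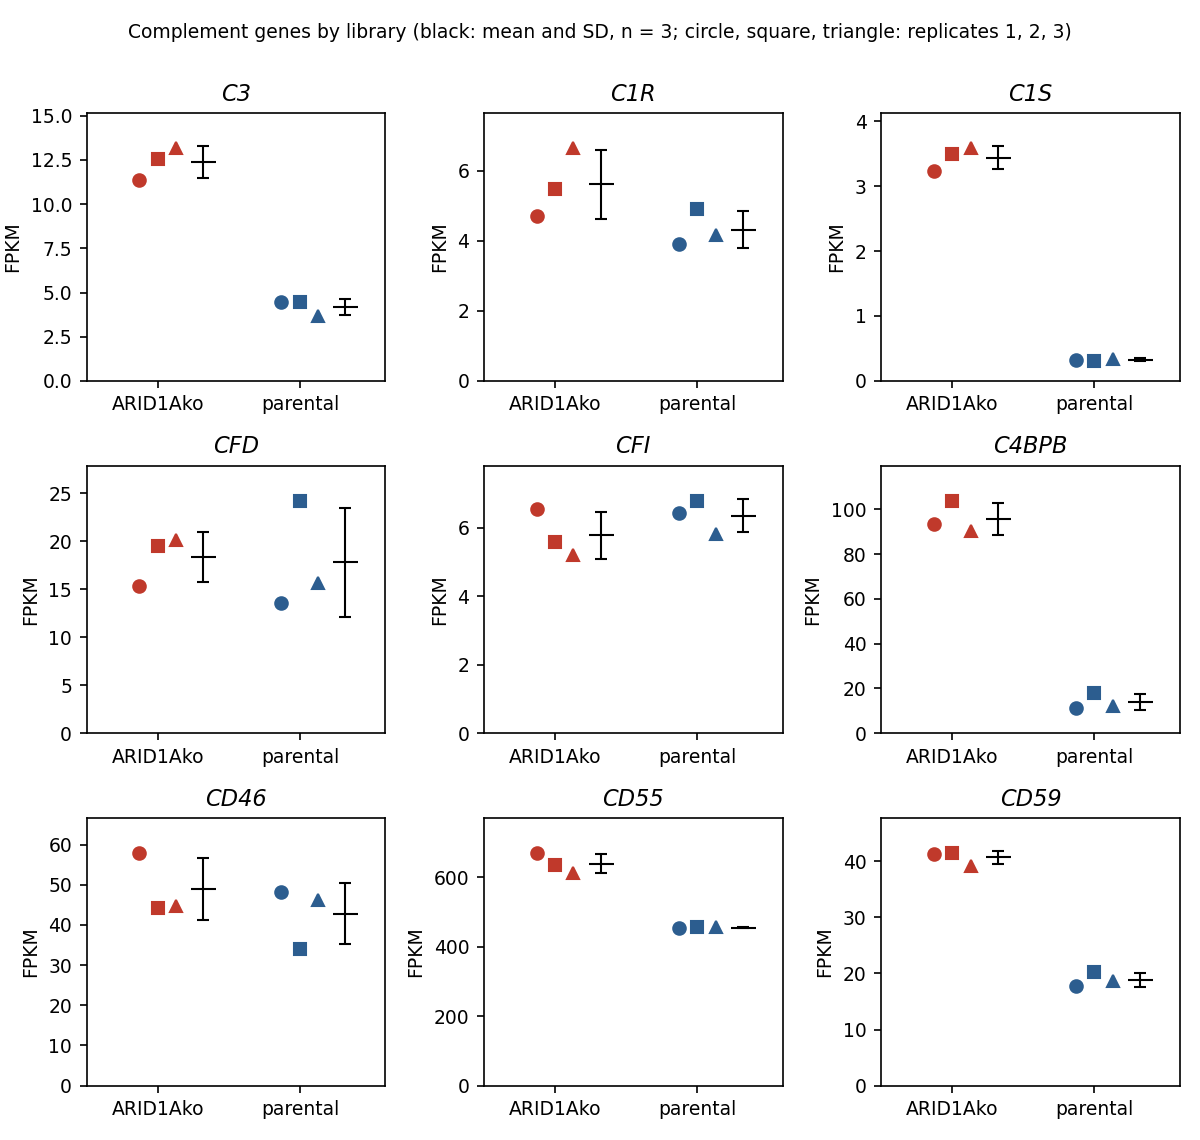
FPKM of the 9 complement genes in each library (y axis from 0, scaled per gene), with ARID1A-deficient libraries in red and parental libraries in blue. Circles, squares and triangles are replicates 1, 2 and 3, and the black mark is the mean with its SD (n = 3). C3, C1S, C4BPB, CD55 and CD59 have no overlap between the groups, while the other 4 genes overlap.

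C3 lies on chromosome 19 and encodes the component that all routes of activation share. It measured 11.4, 12.5 and 13.2 FPKM in ARID1A-deficient libraries, against 4.47, 4.44 and 3.67 FPKM in parental libraries. The lowest ARID1A-deficient value lay well above the highest parental value. The means were 12.4 ± 0.907 FPKM in ARID1A-deficient cells and 4.19 ± 0.455 FPKM in parental cells (SD, n = 3 each). C3 was thus 2.95-fold higher, with a log2 fold change of 1.37 (SE 0.11) on the log2(FPKM + 1) scale and a limma adjusted p = 0.000303. Folds in FPKM are ratios of group means, and the log2 scale with its added 1 understates changes of low genes. The call held in all 14 alternative fits, whose log2 fold change lay between 1.29 and 1.54. GPR108, a membrane protein gene that overlaps C3 on the same strand in the GENCODE annotation of GRCh38, measured 39.1 ± 3.59 FPKM in ARID1A-deficient cells and 34.2 ± 2.69 FPKM in parental cells (SD, n = 3 each) and did not pass (adjusted p = 0.284).

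Among 9788 genes outside the lists that averaged 3 FPKM or more, DMBT1, TIMP3 and ADORA1 had patterns closest to that of C3 over the 6 libraries. Closeness was the Euclidean distance between log2(FPKM + 1) values after each gene's own mean was taken away, and it was 0.146 for DMBT1, 0.228 for TIMP3 and 0.272 for ADORA1. Such a choice fixes a group difference like that of C3, so the values below only describe the genes chosen. DMBT1, a secreted scavenger receptor protein of mucosal surfaces, measured 31.2 ± 1.80 FPKM in ARID1A-deficient cells and 11.1 ± 0.597 FPKM in parental cells (SD, n = 3 each). TIMP3, an inhibitor of metalloproteases, measured 27.3 ± 0.615 FPKM in ARID1A-deficient cells and 9.99 ± 0.264 FPKM in parental cells. ADORA1, an adenosine receptor, measured 6.36 ± 0.221 FPKM in ARID1A-deficient cells and 2.05 ± 0.268 FPKM in parental cells.

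C1R and C1S encode the paired serine proteases of the C1 complex: C1r activates itself and then cleaves C1s, which goes on to cleave C4 and C2. C1S measured 3.24, 3.49 and 3.58 FPKM in ARID1A-deficient libraries, against 0.327, 0.299 and 0.344 FPKM in parental libraries. The groups lay far apart, and each was tight. C1S was 10.6-fold higher, at 3.44 ± 0.178 FPKM in ARID1A-deficient cells and 0.323 ± 0.0230 FPKM in parental cells (SD, n = 3 each), and the log2 fold change was 1.75 with an SE of 0.09 (limma adjusted p = 3.92e-05). It was 3.06 with a pseudocount of 0.1 in place of 1. The row could not be tested with a minimum mean of 3 FPKM, and the call held in the other 13 alternatives.

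C1R measured 4.70, 5.49 and 6.65 FPKM in ARID1A-deficient libraries, against 3.90, 4.90 and 4.16 FPKM in parental libraries. The groups overlapped, and C1R did not pass (log2 fold change 0.31, 95% interval -0.02 to 0.63, limma adjusted p = 0.195). The ratio of C1S to C1R, both per transcript length, was 0.689, 0.637 and 0.539 in ARID1A-deficient libraries, against 0.0836, 0.0609 and 0.0827 in parental libraries. The ratios did not overlap, and a two-sided exact permutation test gave p = 0.1, the smallest that 3 against 3 libraries allow (0.15 adjusted over 3 ratios compared). Both genes lie on chromosome 12, and 3 tested genes of the GENCODE annotation of GRCh38 overlap them: EMG1 and LPCAT3 overlap C1S, and C1RL overlaps C1R. EMG1 measured 118 ± 11.9 FPKM in ARID1A-deficient cells and 124 ± 31.4 FPKM in parental cells (SD, n = 3 each, as for the next pair). LPCAT3 measured 40.3 ± 0.421 FPKM in ARID1A-deficient cells and 45.2 ± 0.782 FPKM in parental cells. C1RL measured 15.7 ± 1.65 FPKM in ARID1A-deficient cells and 15.6 ± 2.26 FPKM in parental cells. LPCAT3 alone of these had no overlap between the groups, with the ARID1A-deficient libraries lower. The limma adjusted p was 0.899 for EMG1, 0.213 for LPCAT3 and 0.985 for C1RL, so none of the overlapping genes passed. LPCAT3 lies on the opposite strand, and the library kit does not mark strand.

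CFD, also on chromosome 19, encodes factor D, the protease also called adipsin that cleaves factor B and so forms the alternative pathway convertase. It measured 15.4, 19.5 and 20.1 FPKM in ARID1A-deficient libraries, against 13.6, 24.2 and 15.6 FPKM in parental libraries. Parental library 2 was the highest of all 6, and the groups overlapped (log2 fold change 0.07, SE 0.21, limma adjusted p = 0.865). That library also had the lowest slope of values on transcript length, -0.0268 against -0.00756 to 0.0128 in the other 5, and the highest sum of FPKM, 792187. With the slope as a covariate, the log2 fold change of CFD was 0.14 with an SE of 0.18 (limma adjusted p = 0.632). Without parental library 1 the sign turned to -0.092 (adjusted p = 0.832), and without parental library 2 the log2 fold change was 0.304 (adjusted p = 0.098).

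CFI, on chromosome 4, encodes factor I, the plasma protease that cuts C3b and C4b with the help of a cofactor. It measured 6.53, 5.6 and 5.20 FPKM in ARID1A-deficient libraries, against 6.42, 6.79 and 5.83 FPKM in parental libraries. The groups overlapped, with a log2 fold change of -0.12 (95% interval -0.38 to 0.14, limma adjusted p = 0.536).

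C4BPB had the highest log2 fold change of the 9 genes with a pseudocount of 1, while with one of 0.1 C1S was higher, at 3.06 against 2.81 for C4BPB. It encodes the beta chain of C4b-binding protein, the chain that binds the anticoagulant protein S, while the alpha chains, encoded by C4BPA, bind C4b. C4BPB measured 93.3, 104 and 90.3 FPKM in ARID1A-deficient libraries, against 11.5, 18.0 and 12.1 FPKM in parental libraries. The groups were far apart, with parental library 2 the highest of its group. C4BPB was 6.90-fold higher, at 95.8 ± 7.12 FPKM in ARID1A-deficient cells and 13.9 ± 3.62 FPKM in parental cells (SD, n = 3 each), and the log2 fold change was 2.73 with an SE of 0.17 (limma adjusted p = 0.000114). Only 52 of the 12826 tested genes had a higher log2 fold change, and the gene ranked 1229th by level in ARID1A-deficient cells and 5514th in parental cells. The call held in all 14 alternatives, with a log2 fold change of 2.61 to 2.92. C4BPA was listed at 0, 0 and 0.161 FPKM in ARID1A-deficient libraries and at 0, 0 and 0.0314 FPKM in parental libraries, below the minimum for testing in both groups.

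CD46, CD55 and CD59 encode surface proteins that shield cells from their own complement: CD46 is a cofactor for factor I, CD55 speeds the decay of the convertases, and CD59 blocks assembly of the membrane attack pore. CD59 measured 41.3, 41.5 and 39.2 FPKM in ARID1A-deficient libraries, against 17.7, 20.2 and 18.6 FPKM in parental libraries. No libraries overlapped, and each group was tight. CD59 rose 2.16-fold, at 40.7 ± 1.24 FPKM in ARID1A-deficient cells and 18.8 ± 1.25 FPKM in parental cells (SD, n = 3 each), and the log2 fold change was 1.07 with an SE of 0.08 (limma adjusted p = 0.000304). The call held in all 14 alternatives.

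CD55 was the most abundant of the 9 transcripts in both groups, ranking 147th of 12826 in ARID1A-deficient cells and 219th in parental cells. It measured 670, 634 and 614 FPKM in ARID1A-deficient libraries, against 454, 456 and 456 FPKM in parental libraries. The groups did not overlap, with means of 639 ± 28.4 FPKM in ARID1A-deficient cells and 455 ± 1.39 FPKM in parental cells (SD, n = 3 each). The log2 fold change was 0.49 (SE 0.14, 95% interval 0.16 to 0.81), and CD55 missed the threshold (limma adjusted p = 0.0562). It passed in 4 of 14 alternatives, upper quartile scaling (adjusted p = 0.031), limma without trend or robust moderation (adjusted p = 0.00916), the replicate block (adjusted p = 0.0113) and leaving out parental library 2 (adjusted p = 0.0221). The highest adjusted p of the 14 was 0.216, without parental library 3.

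CD46 measured 57.9, 44.1 and 44.7 FPKM in ARID1A-deficient libraries, against 48.1, 34.1 and 46.1 FPKM in parental libraries. The groups overlapped, with ARID1A-deficient library 1 the highest and parental library 2 the lowest (log2 fold change 0.19, 95% interval -0.20 to 0.59, limma adjusted p = 0.510). The ratio of CD59 to CD55 was 0.0636 ± 0.00187 in ARID1A-deficient cells and 0.0414 ± 0.00268 in parental cells (SD, n = 3 each), with no overlap (two-sided exact permutation p = 0.1, the smallest possible, and 0.15 adjusted over 3 ratios). The ratio of CD55 to CD46 was 11.6, 14.4 and 13.7 in ARID1A-deficient libraries, against 9.44, 13.4 and 9.90 in parental libraries. These ratios overlapped (two-sided exact permutation p = 0.2, also 0.2 adjusted).

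**Figure D2:**
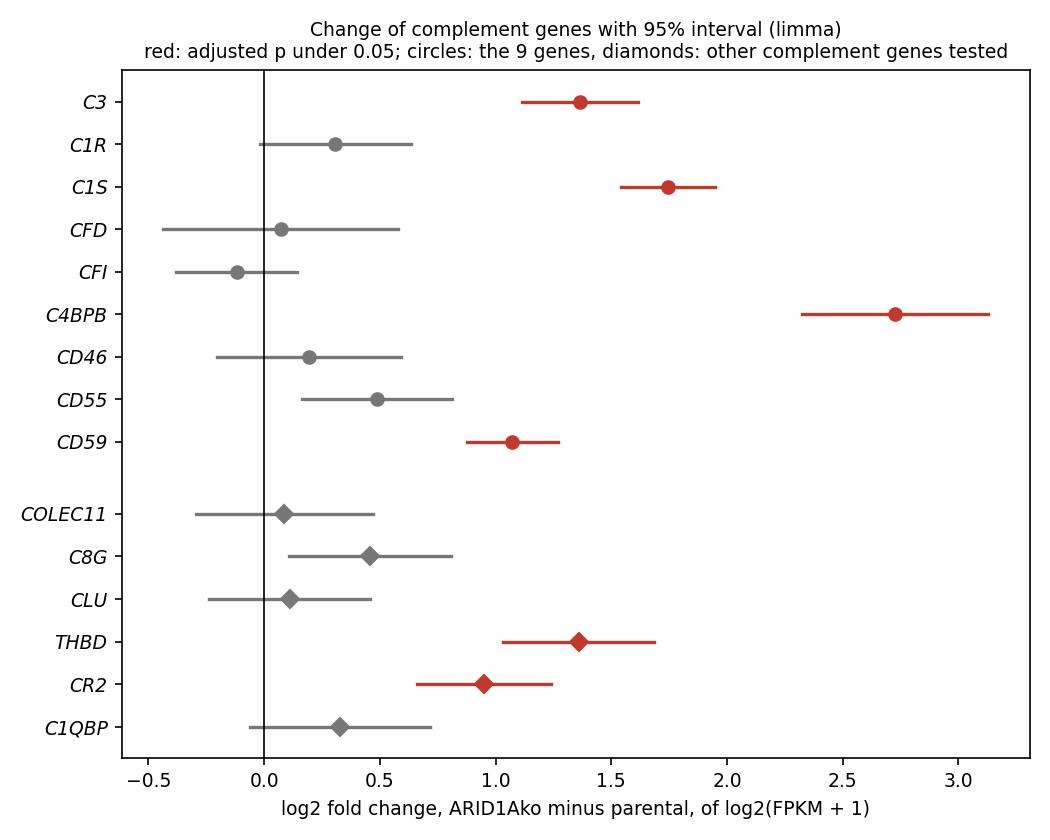
Log2 fold change of log2(FPKM + 1), ARID1A-deficient minus parental, with its 95% interval from limma, for the 9 genes (circles) and the 6 other complement genes described (diamonds). Red marks an adjusted p under 0.05. C4BPB lies at 2.73, C1S at 1.75, C3 at 1.37 and CD59 at 1.07, and CFD and CFI lie near 0.

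Promoter sequences of 7 of the 9 genes were matched by symbol in RefSeq (GRCh38.p14), all but C3 and C1S. Each runs from 250 bases before to 50 bases after the most upstream listed start. Those of C4BPB and CD59, which rose, are shown with those of CD55 and CD46, which did not pass and are near neighbours of C4BPB on chromosome 1. C4BPB spans chr1:207088610-207088909 on the plus strand, CD59 spans chr11:33736430-33736729 on the minus strand, CD55 spans chr1:207321428-207321727 on the plus strand and CD46 spans chr1:207751788-207752087 on the plus strand. Capitals mark matches, on either strand, to any of 8 motifs: the TATA box TATAAA, the GC box GGGCGG, the box CCAAT, the AP-1 motif TGANTCA, the CRE-like run TGACGCA, the STAT motif TTCNNNGAA, the CEBP motif TTNNGCAA and the NF-kB consensus. The sequences are written 5′ to 3′ on the strand of the gene.
C4BPB: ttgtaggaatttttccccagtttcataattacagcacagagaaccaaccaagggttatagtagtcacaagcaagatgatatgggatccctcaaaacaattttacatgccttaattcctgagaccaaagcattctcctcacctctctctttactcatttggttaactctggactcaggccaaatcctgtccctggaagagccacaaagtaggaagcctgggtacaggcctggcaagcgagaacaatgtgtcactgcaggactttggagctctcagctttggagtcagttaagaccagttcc
CD59: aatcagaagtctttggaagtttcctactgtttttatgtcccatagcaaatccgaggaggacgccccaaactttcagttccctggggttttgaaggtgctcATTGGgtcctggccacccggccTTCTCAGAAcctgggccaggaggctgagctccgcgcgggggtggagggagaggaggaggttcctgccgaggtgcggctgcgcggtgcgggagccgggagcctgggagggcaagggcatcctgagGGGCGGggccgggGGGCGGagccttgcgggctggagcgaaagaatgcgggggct
CD55: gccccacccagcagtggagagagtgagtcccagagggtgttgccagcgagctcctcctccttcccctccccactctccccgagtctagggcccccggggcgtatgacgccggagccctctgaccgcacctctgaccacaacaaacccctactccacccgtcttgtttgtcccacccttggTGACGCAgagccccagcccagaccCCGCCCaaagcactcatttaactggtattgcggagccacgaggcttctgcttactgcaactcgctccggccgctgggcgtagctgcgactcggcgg
CD46: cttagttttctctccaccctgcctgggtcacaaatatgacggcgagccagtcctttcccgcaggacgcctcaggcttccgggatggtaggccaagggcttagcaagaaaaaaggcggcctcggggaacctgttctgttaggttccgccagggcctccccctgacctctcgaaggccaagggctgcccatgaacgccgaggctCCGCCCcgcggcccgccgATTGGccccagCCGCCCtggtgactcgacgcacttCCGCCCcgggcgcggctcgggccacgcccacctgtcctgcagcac

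The C4BPB window held none of the 8 motifs, 1 CG pair and 45.3% G and C. The median of 27305 promoters was 13 CG pairs and 58.3% G and C. CD59 had 18 CG pairs, CD55 had 19 and CD46 had 25. GC box matches numbered 2 in CD59, 1 in CD55 and 3 in CD46, and 44.5% of all promoters hold at least 1. CD59 also held 1 match to the STAT motif, found in 7.88% of promoters, and 1 CCAAT, found in 35.7%, which CD46 held too. CD55 held the run TGACGCA, found in 2.51% of promoters. The other shares were 12% for TATAAA, 7.72% for AP-1, 10.6% for CEBP and 10.8% for NF-kB. No matches overlapped within the 4 windows. A match describes the letters of the window and shows no binding.

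C4BPB, CD55 and CD46 belong to a cluster of complement regulator genes on chromosome 1, which holds C4BPB, C4BPA, CD55, CR2, CR1, CR1L and CD46 in that order in RefSeq. Of these 7, 4 reached the level for testing, and C4BPB and CR2 rose. CR2, the receptor for C3d on B cells, measured 2.91, 2.01 and 2.51 FPKM in ARID1A-deficient libraries, against 0.916, 0.772 and 0.694 FPKM in parental libraries. It was 3.12-fold higher, with no overlap (log2 fold change 0.95, SE 0.12, limma adjusted p = 0.00300). Leukocyte markers summed to 6.14 to 7.96 FPKM in ARID1A-deficient libraries and 8.51 to 10.1 FPKM in parental libraries, nearly all of it CD68. CD68, a macrophage lysosomal protein gene, fell to 6.44 ± 0.797 FPKM in ARID1A-deficient cells, against 9.17 ± 0.672 FPKM in parental cells (SD, n = 3 each, limma adjusted p = 0.0346). The CD68 call was lost in 5 of 14 alternatives (limma adjusted p up to 0.136). These were quantile normalization and leaving out ARID1A-deficient library 1 or 3 or parental library 1 or 3. The B cell marker CD79A reached at most 0.191 FPKM in ARID1A-deficient libraries and 0.266 FPKM in parental libraries. CR1, the receptor for C3b, and its relative CR1L share sequence and reached at most 0.00762 and 0.0550 FPKM in any library. On both sides of the cluster, the 16 nearest tested genes had a median log2 fold change of 0.19. Among them, 3 were higher and 1 was lower, against 7.82% and 8.11% of all genes tested. PFKFB2 and C1orf116, just upstream of C4BPB, were among those 3, with log2 fold changes of 1.2 and 1.01.

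**Figure D3:**
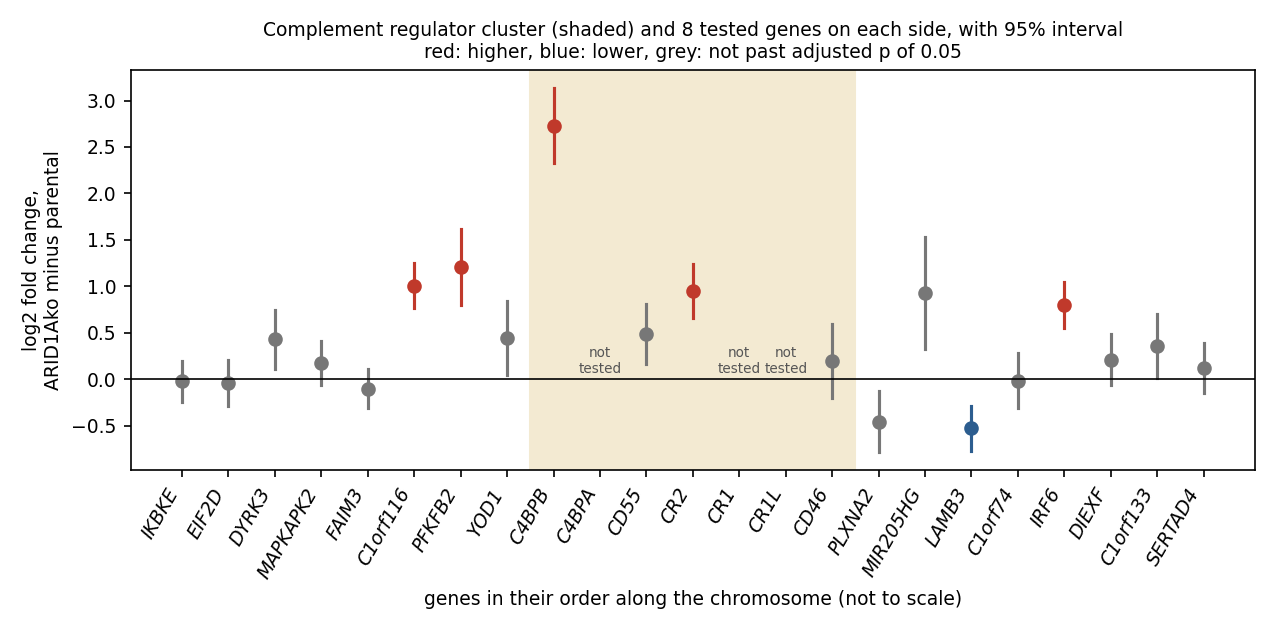
Log2 fold change (ARID1A-deficient minus parental, 95% interval) of the complement regulator cluster, shaded, and of the 8 tested genes on each side, in chromosomal order and not to scale. Rows of microRNA precursors were left out. Red genes were higher, the blue gene was lower and grey genes did not pass. Within the cluster C4BPB stands at 2.73, CR2 at 0.95, CD55 at 0.49 and CD46 at 0.19.

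The same look at the 20 nearest tested genes of each of the 9 gave a median log2 fold change of 0.07 around C3, 0.03 around C1S and 0.23 around CD59. For CD59, 7 of those 20 were higher and 2 were lower. For C3, 2 were lower and none higher, and for C1S, 3 were higher and none lower. Around CD55 the median was 0.31 and around CD46 it was 0.44, above the log2 fold change of CD46 itself. Both had 5 higher and 1 lower. Around C1R it was 0.109, with 5 higher and none lower. It was 0.178 around CFD and 0.185 around C4BPB, each with 3 higher and 1 lower. Around CFI it was -0.15, with 5 of 20 lower and none higher. The shares over all genes tested were 7.82% higher and 8.11% lower. The windows of C4BPB, CD55 and CD46 share genes. Listed complement genes were not taken out of any window. The higher genes around CD55 and CD46 therefore include C4BPB and CR2, and those around C4BPB include CR2. What these shifts contribute to the values of single genes was not tested.

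Most other complement genes were listed at or near 0. Of 54 other complement symbols with a row, 26 were at 0 in every library, against 23.3% of all rows. The 26 include C2, CFB, C4A and C4B, whose zeros are taken up below. Of the 54, 6 reached the level for testing, against 12826 of all 23245 rows. THBD and CR2 rose, none fell, and COLEC11, C8G, CLU and C1QBP did not pass. Of all genes tested, 7.82% were higher. The median log2 fold change of the 6 was 0.39, against -0.015 over all genes tested. C8G reached the minimum mean only through its ARID1A-deficient libraries, at a mean of 1.01 FPKM, against 0.472 FPKM in parental libraries. That filter therefore favoured a higher median. THBD encodes thrombomodulin, an endothelial anticoagulant receptor that also promotes factor I activity. It measured 11.7, 10.2 and 11.5 FPKM in ARID1A-deficient libraries, against 4.41, 2.93 and 3.90 FPKM in parental libraries. The groups were apart, and THBD was 2.96-fold higher (log2 fold change 1.36, SE 0.14, limma adjusted p = 0.00105). Endothelial markers PECAM1, VWF, CDH5 and KDR summed to 8.64 to 9.23 FPKM in ARID1A-deficient libraries and 8.43 to 10.0 FPKM in parental libraries, most of it CDH5. PECAM1, an adhesion molecule among them, fell to 1.24 ± 0.142 FPKM in ARID1A-deficient cells, against 2.01 ± 0.152 FPKM in parental cells (SD, n = 3 each, limma adjusted p = 0.0254). The PECAM1 call was lost in 5 of 13 alternatives, each with 1 library left out (limma adjusted p up to 0.0992). CDH5 did not pass (log2 fold change 0.10, limma adjusted p = 0.594).

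Clusterin, encoded by CLU, is a plasma inhibitor of the membrane attack complex. It measured 16.0, 20.2 and 18.5 FPKM in ARID1A-deficient libraries, against 15.1, 20.6 and 15.1 FPKM in parental libraries, and the groups overlapped (limma adjusted p = 0.673). The C1 inhibitor gene SERPING1, which blocks C1r and C1s, was listed at 0 in all ARID1A-deficient libraries and at 0.163, 0.208 and 0 FPKM in parental libraries. VTN, which encodes vitronectin, was listed at 0, 0.0609 and 0.111 FPKM in ARID1A-deficient libraries and at 0 in all parental libraries. C5, the start of the terminal pathway, stayed at or below 0.0684 FPKM in every library.

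C2, CFB, C4A and C4B, the genes of the convertase partners in the major histocompatibility region of chromosome 6, were listed at 0 in all 6 libraries. Of the 37 other rows nearest to C2 in RefSeq order, 35 were also at 0 throughout, or 94.6%, against 23.3% of all rows. TUBB, a tubulin gene of the same chromosome arm that cells generally express, was at 0 as well. A listed 0 can be a failed estimate, so nothing is said here about whether the cells transcribe these 4 genes.

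**Figure D4:**
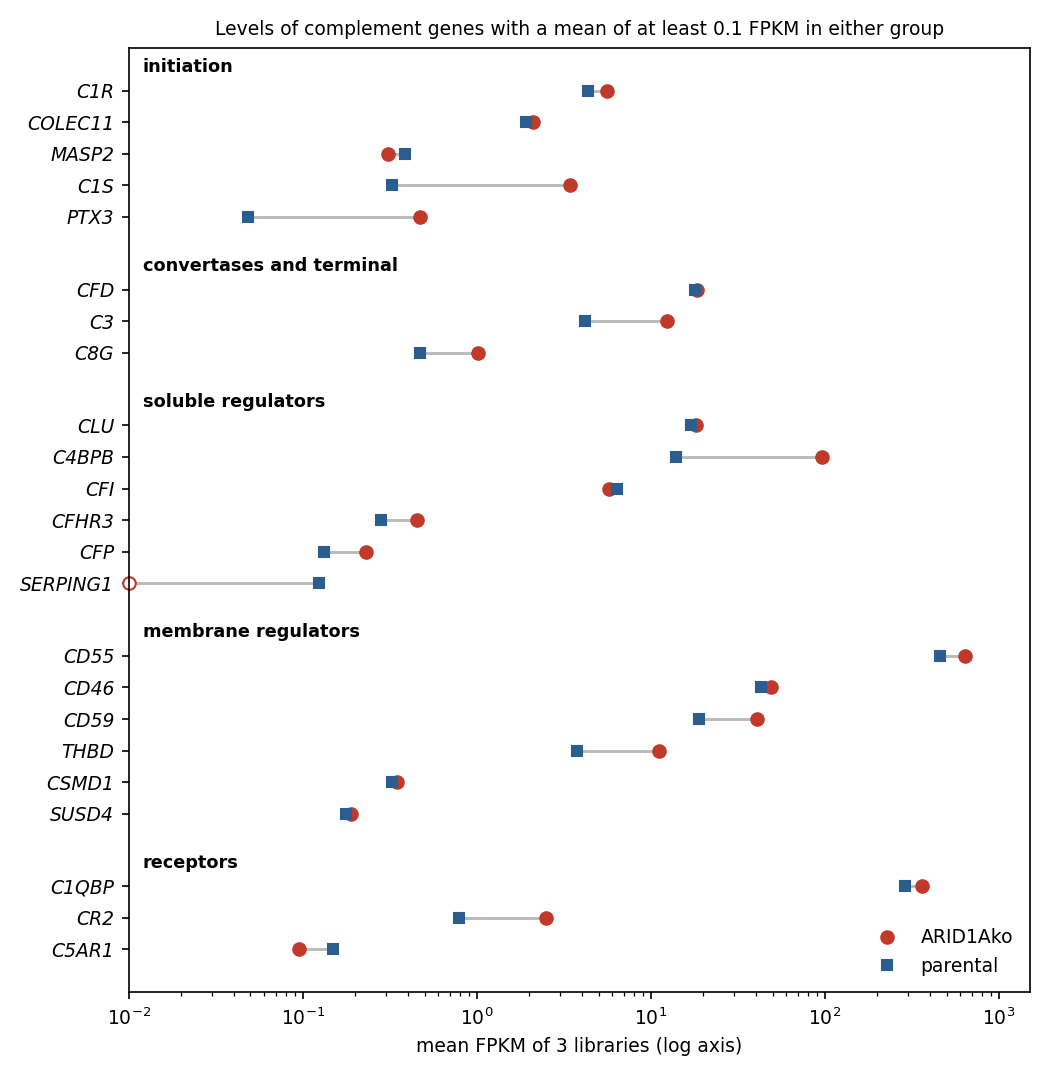
Mean FPKM (log axis, n = 3) of 23 complement genes that reached a mean of 0.1 FPKM in either group, by role, with ARID1A-deficient means as red circles and parental means as blue squares. The open circle for SERPING1 marks a mean of 0, drawn at the axis edge. CD55 and C1QBP are the most abundant, and C4BPB stands above CD46 in ARID1A-deficient cells and below CLU in parental cells.

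CD55 and CD59 are held in the membrane by a glycosylphosphatidylinositol anchor, which the endoplasmic reticulum builds stepwise and attaches to the protein. All 28 genes of this route that were listed could be tested, and 4 fell, none rose and 24 did not pass, with a median log2 fold change of -0.06. Of all genes tested, 8.11% were lower. PIGV, a mannosyltransferase gene, measured 10.8, 11.7 and 11.1 FPKM in ARID1A-deficient libraries, against 18.8, 19.5 and 20.3 FPKM in parental libraries (log2 fold change -0.75, limma adjusted p = 0.00110). PIGF, an ethanolamine phosphate transfer factor, measured 9.09, 7.82 and 6.74 FPKM in ARID1A-deficient libraries, against 12.4, 18.4 and 17.4 FPKM in parental libraries (adjusted p = 0.0116). PIGW, an inositol acyltransferase gene, fell to 5.59 ± 0.836 FPKM in ARID1A-deficient cells, against 9.40 ± 0.828 FPKM in parental cells (SD, n = 3 each, limma adjusted p = 0.0137). PIGS, a transamidase subunit gene, fell to 50.2 ± 2.30 FPKM in ARID1A-deficient cells, against 65.1 ± 1.22 FPKM in parental cells (SD, n = 3 each, limma adjusted p = 0.0293). The 20 nearest tested genes had a median log2 fold change of -0.25 for PIGV, -0.40 for PIGF, -0.31 for PIGW and -0.21 for PIGS. Of those 20, 4 were lower for PIGV, 8 for PIGF, 5 for PIGW and 5 for PIGS, and none were higher. PIGV lies on chromosome 1, as does ARID1A, the disrupted gene. Whether the lower PIGV value is local to that region or a matter of the anchor route was not tested. Only the PIGV call held in every alternative: leaving out parental library 3 ended those of PIGW, PIGF and PIGS, leaving out ARID1A-deficient library 3 ended those of PIGF and PIGS, and leaving out parental library 1 or ARID1A-deficient library 1 or 2 ended that of PIGS.

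Complement genes are induced by cytokines, chiefly interferon gamma, interleukin 6, interleukin 1 and tumour necrosis factor. Of 26 listed cytokines, receptors and transcription factors of these routes, 18 could be tested, 1 rose, 1 fell and 16 did not pass, with a median log2 fold change of 0.01. Of all genes tested, 15.9% passed in either direction. IFNGR1, a chain of the interferon gamma receptor, measured 35.0, 33.1 and 33.8 FPKM in ARID1A-deficient libraries, against 24.6, 24.3 and 24.2 FPKM in parental libraries (log2 fold change 0.46, SE 0.07, limma adjusted p = 0.00679). Its 20 nearest tested genes had a median log2 fold change of 0.37, with 8 higher, against 7.82% of all genes tested. IRF1, a transcription factor induced by interferon gamma, measured 5.24, 4.93 and 5.25 FPKM in ARID1A-deficient libraries, against 7.04, 8.19 and 8.21 FPKM in parental libraries (log2 fold change -0.52, SE 0.09, limma adjusted p = 0.0123). IRF1 no longer passed when any of 3 libraries was left out, ARID1A-deficient 2, ARID1A-deficient 3 or parental 3 (adjusted p up to 0.0711). The transcripts of interferon gamma, tumour necrosis factor and oncostatin M, IFNG, TNF and OSM, were listed at 0 in all libraries, and TNF lies in the same chromosome 6 region as C2.

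**Figure D5:**
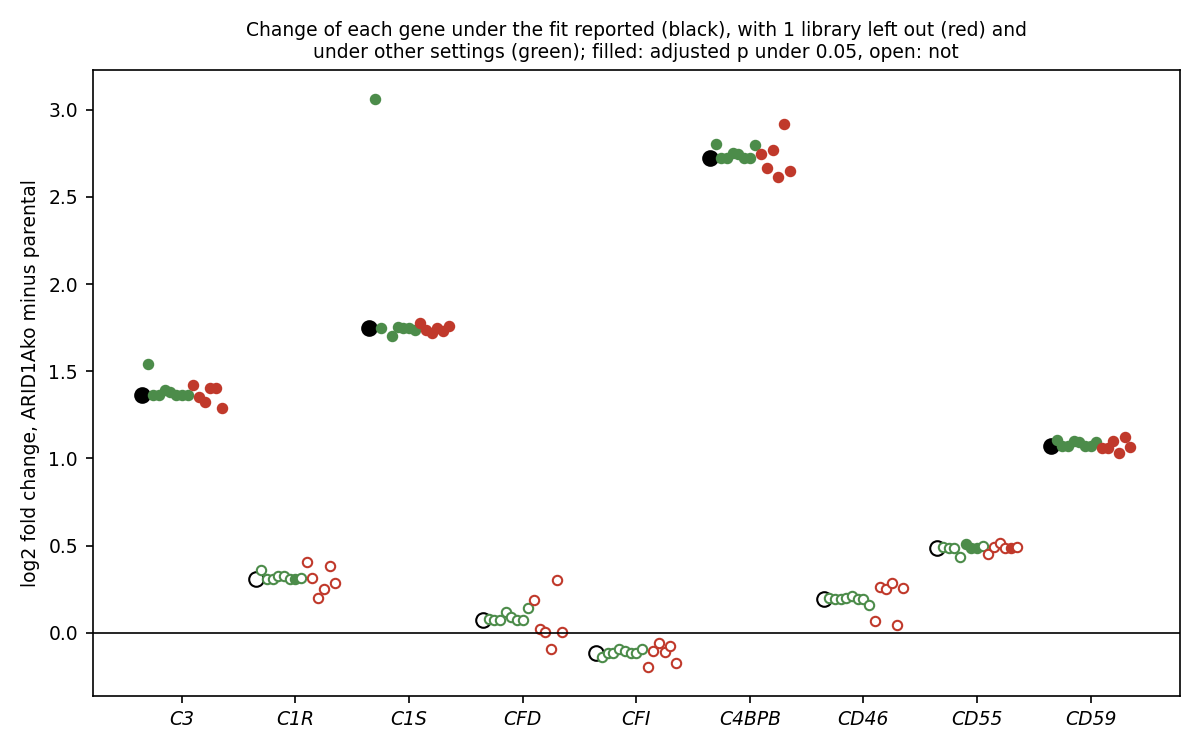
Log2 fold change (ARID1A-deficient minus parental) of each of the 9 genes in the fit reported (black), with 1 library left out (red) and under other settings (green). Filled points have an adjusted p under 0.05. C3, C1S, C4BPB and CD59 are filled wherever tested, CD55 is filled in 4 alternatives and C1R in 1.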

How the data were processed

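Messenger RNA of 6 samples was profiled, 3 titled ARID1Ako and 3 parental, with groups and replicate numbers from the sample titles. Libraries were made, per the labels' protocols, with a TruSeq kit that captures polyadenylated RNA. The authors deposited 1 table per sample with an FPKM value per gene symbol. The submitters' processing notes name Cuffdiff 2.2.1.5, Cuffnorm 2.2.1.2, TopHat2 2.1.1 and the build hg19. No source used here gives the annotation, the filters or the scaling. Of 23273 rows, 28 with symbols turned into dates were left out.

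The 12826 genes averaging 0.5 FPKM or more were tested with limma 3.58.1 (R 4.3.3) on log2(FPKM + 1), with a mean-variance trend, robust moderation and group as the only term. P-values are two-sided and adjusted over all tested genes by the Benjamini-Hochberg method. Nothing states that the samples came from separate cultures, so p-values measure the spread between these samples. The 9 genes, the lists and the tests were chosen with earlier results of these data known. Named beside the 9 are ARID1A, 12 further complement genes, list members past the threshold and the 3 genes most like C3. PFKFB2 and C1orf116, and C1QBP, COLEC11 and C8G, are named outside this rule, after their values were seen, as are overlapping genes, markers, TUBB, PTX3, IFNG, TNF, OSM, IL6, IL1A and IL1R1, and 1 gene that the rule names is not reported here. Relative depth came from rows under 0.2 FPKM in every library, as the modal ratio in bins of 0.05 on the log2 scale, so precision rests on the spread between libraries. Neighbours came from gene order in RefSeq of GRCh38. The procedure was tested on simulated data with independent noise per gene and changes only in genes of higher level. That setting holds no shifts shared across a library and no changed genes as low as C1S, so it cannot speak for those. Alternatives were a pseudocount of 0.1, other filters and scalings, plain limma, a replicate block, single libraries left out and, added after the data were seen, each library's slope on transcript length as a covariate (median GENCODE length, known for 89.3% of tested genes).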

Additional observations from a re-analysis of the deposited data

How the results depend on the processing

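The 9 genes gave 3 to 6 calls over 14 alternatives, all higher, against 4 in the fit reported. Over 306 refits of 22 named genes, 289 kept direction and side of the threshold, 11 lost their call, 5 gained one and 1 reversed. The 22 are the 9, ARID1A, CLU, the complement, anchor and inducer genes past the threshold, and the 3 most like C3. Other named genes are not in this tally: CD68 and PECAM1 each lost their call in 5 alternatives, and C8G gained one in 2. The reversal was CFD, whose log2 fold change ranged over left-out libraries between -0.092 (parental 1 left out) and 0.304 (parental 2 left out). The replicate block gave 4049 changed genes in place of 2043, 9 anchor genes in place of 4 and 5 inducers in place of 2, and it added C1R (adjusted p = 0.0478) and CD55 to the calls. Whether replicate numbers mark pairs cannot be decided from 3 libraries per group. Deviations from the group means correlated at 0.219, 0.217 and -0.0131 for numbers 1, 2 and 3. Numbers 1 and 2 gave the highest values of all pairs, and crossed with each other they gave -0.267 and -0.174. ARID1A-deficient library 3 correlated best with parental library 2 (0.0568). No filter on low values gave 4 inducers, and a minimum mean of 3 FPKM, under which CR2 was not tested, gave 1 other complement gene in place of 2. With 1 library left out, changed genes numbered 960 (without ARID1A-deficient library 3) to 4113 (without parental library 2), other complement genes 2 to 4, anchor genes 1 to 8 and inducers 1 to 4. The lowest counts of anchor genes came without parental library 3, and the highest of each came without parental library 2. The causes were not tested. Depth is known only in relative terms, so values far below 1 FPKM, such as those of parental C1S, carry the least certainty.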

Other observations

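Some list members lay below the minimum mean for testing and are given as values only. IL1A, a cytokine that can induce C3, measured 0.565, 0.560 and 0.392 FPKM in ARID1A-deficient libraries, against 0.0961, 0.123 and 0.0706 FPKM in parental libraries. IL6 measured 0.314, 0.457 and 0.0837 FPKM in ARID1A-deficient libraries and was listed at 0 in every parental library. PTX3, a secreted pattern recognition protein that binds C1q, measured 0.681, 0.259 and 0.473 FPKM in ARID1A-deficient libraries, against 0, 0.145 and 0 FPKM in parental libraries. IL1R1, the interleukin 1 receptor, ran the other way, at 0.142, 0.153 and 0.105 FPKM in ARID1A-deficient libraries, against 0.446, 0.356 and 0.463 FPKM in parental libraries. These 4 were chosen after their values were seen. Among adipocyte markers, listed because factor D is an adipocyte product, FABP4, a fatty acid carrier, fell to 1.24 ± 0.335 FPKM in ARID1A-deficient cells, against 7.38 ± 2.17 FPKM in parental cells (SD, n = 3 each, limma adjusted p = 0.00149). ADIPOQ, which encodes adiponectin, was at 0 in all libraries. The other listed adipocyte markers, PLIN1 and LPL, lay below the minimum mean for testing. PLIN1 averaged 0.101 FPKM in ARID1A-deficient libraries and 0.265 FPKM in parental libraries. LPL ran the other way, at 0.0290, 0.0253 and 0.0232 FPKM in ARID1A-deficient libraries and 0 in every parental library.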
